A study of Mus musculus with 5 samples.

Results

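The genes described here come from a set grouped as regulators of the tumour suppressor p53 and its non-apoptotic targets. The grouping does not exclude a role in cell death for any of them. The genes are Mdm2, Mdm4, Ccng1, Plk2, Eda2r, Sesn1, Sesn2, Zmat3 and Trp53inp1. They were selected by gene symbol, and Trp53 itself, the tenth symbol of the set, had no probe set under that single symbol in the annotation used and was not analysed here. The 9 genes were represented by 22 probe sets of 45101 on the array, 20 of which had a mean signal of at least 100, and all 9 were among the 14109 genes tested. The study hybridised RNA from 4 mouse medulloblastomas, a tumour of the cerebellum, and from 1 normal mouse cerebellum labelled P5, read as postnatal day 5, to Affymetrix arrays. Its title speaks of Cxcr6 mutant tumours (Cxcr6 is a chemokine receptor) and of inhibiting Smoothened, the Hedgehog signal transducer, but no genotype, treatment, sex or tumour age is attached to a single array, so the only comparison made is of tumours with the P5 cerebellum, in which tumour and age cannot be told apart. The labels do not say whether the tumours came from separate animals, so p-values measure only the spread between these arrays, and the submitters state that there are too few replicates for statistics.

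p53 is a transcription factor that is held at low levels by the ubiquitin ligase Mdm2 and restrained by its relative Mdm4. When DNA damage or oncogene activity frees it, p53 induces genes that arrest the cell cycle, repair DNA, adjust metabolism or kill the cell, and it also induces Mdm2, which closes a negative feedback loop. Granule neuron precursors of the cerebellum are the cells from which Hedgehog-driven medulloblastomas arise, and loss of p53 is known to speed such tumours in mice.

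Signal ratios of 3' to 5' probe sets, which rise as RNA degrades, ranged over 1.21 to 1.45 (actin) and 0.731 to 0.946 (Gapdh) on the 5 arrays, with medulloblastoma 3 lowest and medulloblastoma 1 highest for both. The granule neuron precursor markers Atoh1, Zic1, Zic2, Barhl1, Pax6 and En2 had signals on all arrays and differed among themselves. Atoh1 read 4178 to 9505 in the tumours against 963 in the cerebellum and was called higher (log2 difference 2.81; limma, Benjamini-Hochberg adjusted p = 0.0336), Barhl1 lay above the cerebellum in all 4 tumours, and Zic1, Pax6 and En2 lay below it in all 4. Over all genes tested, 25.1% lay above the cerebellum in all 4 tumours, 30.8% lay below it in all 4 and 2.01% were at least 2-fold above it in each. Markers of other cells moved with the comparison: 8 of 8 microglia and macrophage genes lay above the cerebellum in every tumour (summed signal 20150 to 26344 against 6255), 6 of 6 cycling cell genes did so (34775 to 46759 against 23851), and 5 of 5 endothelial genes lay below it (1741 to 2264 against 4917), as did 4 of 5 astrocyte genes (11947 to 18680 against 56939) and 3 of 5 fibroblast and meningeal genes (2445 to 4257 against 10007). Of 5 mature granule neuron genes, 3 were at least 2-fold above the cerebellum in each tumour, among them Gabra6 (1664 to 6856 against 164; adjusted p = 0.0468, limma), and 1, Neurod1, lay below it in all 4. The myelin gene Mobp was also called higher (905 to 3231 against 85.1; adjusted p = 0.0468, limma), in an oligodendrocyte list with 2 of 4 genes above and 1 below in all 4. The cerebellum signal of Mobp was under 100, the mean needed for testing, so the gene was tested only through the tumours. The same holds for the microglia gene Aif1 (86.5 in the cerebellum). Summed signals of the Purkinje cell list were 25554, 14107, 5209 and 7634 in medulloblastomas 1 to 4 against 36382. No marker signal was 0, but detection calls were not used. The red blood cell markers Alas2 and Hba-a1 and the T cell markers Cd3e and Cd3g had mean signals under 100 and were not tested. That mean is over 4 tumours and 1 cerebellum, so genes high only in the cerebellum can fall under it. Alas2 read 269 in the cerebellum against at most 23.6 in the tumours, and Hba-a1 131 against 33.6 to 79.3. Cd3e, Cd3g and the tested red blood cell gene Slc4a1 had tumours on both sides of the cerebellum. In bulk RNA, fewer cells of a type and less RNA per cell cannot be told apart, and the part of these shifts in the results below was not tested.

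The promoters of the genes are 1 place where p53 could act, and sites elsewhere in the genes were not searched. The genes were chosen as regulators and targets of p53, not at random. RefSeq promoters (GRCm38.p6) were found for 7 of the 9 genes, not for Zmat3 and Trp53inp1, and the 250 bases before each of their 9 start sites were searched for the p53 half-site, the consensus motif of 10 bases that reads the same on both strands. A p53 response element is built of a pair of such half-sites. The half-site was present in 3 of the 9 promoters, those of Mdm2, Ccng1 and the second start of Sesn1, against 7.13% of 32851 promoters of this length. No promoter of the set had a pair of exact half-sites separated by at most 13 bases, which 0.0639% of all promoters had. The Ccng1 promoter held an exact half-site directly next to a second one with 1 mismatch; 0.898% of all promoters held an exact half-site and a second one with at most 1 mismatch within 13 bases. This looser search was chosen after the Ccng1 sequence had been seen. The sequences below are those with a match and those of Eda2r and Plk2, the genes that lay furthest from the cerebellum. Capitals mark half-sites, and a match is a description of letters and not a bound site.
Mdm2 (chr10:117710759-117711008, minus strand): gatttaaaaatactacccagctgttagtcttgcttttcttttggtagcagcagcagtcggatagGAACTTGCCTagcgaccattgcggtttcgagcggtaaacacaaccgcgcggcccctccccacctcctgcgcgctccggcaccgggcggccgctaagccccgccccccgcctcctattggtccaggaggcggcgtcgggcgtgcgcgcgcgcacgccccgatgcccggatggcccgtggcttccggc
Ccng1 (chr11:40755287-40755536, minus strand): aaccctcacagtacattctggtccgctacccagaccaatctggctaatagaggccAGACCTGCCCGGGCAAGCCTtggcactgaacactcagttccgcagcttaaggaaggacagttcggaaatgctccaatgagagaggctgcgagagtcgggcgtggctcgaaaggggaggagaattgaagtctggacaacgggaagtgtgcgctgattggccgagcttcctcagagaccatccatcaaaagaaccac
Sesn1, second start (chr10:41887189-41887438, plus strand): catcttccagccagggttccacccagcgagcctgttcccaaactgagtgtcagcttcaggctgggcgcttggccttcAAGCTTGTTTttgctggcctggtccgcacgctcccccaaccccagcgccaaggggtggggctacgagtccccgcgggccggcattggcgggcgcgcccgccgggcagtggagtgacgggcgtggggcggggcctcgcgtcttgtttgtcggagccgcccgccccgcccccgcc
Eda2r (chrX:97377210-97377459, minus strand): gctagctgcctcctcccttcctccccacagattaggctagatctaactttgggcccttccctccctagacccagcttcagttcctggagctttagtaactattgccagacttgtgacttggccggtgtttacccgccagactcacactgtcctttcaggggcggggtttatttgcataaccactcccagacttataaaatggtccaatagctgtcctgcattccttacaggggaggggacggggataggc
Plk2 (chr13:110394794-110395043, plus strand): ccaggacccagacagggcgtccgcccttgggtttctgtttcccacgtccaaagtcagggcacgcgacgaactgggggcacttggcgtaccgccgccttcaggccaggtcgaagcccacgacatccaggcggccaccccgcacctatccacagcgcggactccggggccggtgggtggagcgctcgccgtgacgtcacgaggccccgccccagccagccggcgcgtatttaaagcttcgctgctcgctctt
The Mdm2 half-site began 186 bases and the Sesn1 half-site 173 bases before the start site. In Ccng1 the pair began 195 bases before it. No half-site was found before Eda2r, Plk2, Sesn2, both starts of Mdm4 or the other start of Sesn1, which says only that these letters are not in those windows.

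Most genes of the set had higher signals in the tumours than in the P5 cerebellum, by amounts that were mostly small and that did not pass the test. All values below are linear signals, and differences are of log2(signal + 32), tumours minus cerebellum, from limma's fit over all genes with its standard error (4 tumours, 1 cerebellum). The signal of Eda2r, a receptor of the tumour necrosis factor receptor family, was the furthest above the cerebellum and that of the kinase gene Plk2 the furthest below it. At a Benjamini-Hochberg adjusted p under 0.05 in limma, 0 of the 9 genes were called higher and 0 lower, where 0.312% and 0.177% of all genes tested were called. At an unadjusted p under 0.05, Eda2r and Mdm2 were higher and Plk2 was lower, against 7.72% of all genes higher and 7.44% lower. Without a test, 6 of 9 lay above the cerebellum in all 4 tumours (25.1% of all genes) and 1 of 9 lay below it (30.8% of all genes). The 6 became 4 when all probe sets of a gene were averaged, and also when those ending in x_at or s_at were left out. A single gene, Eda2r, was at least 2-fold above in each tumour (2.01% of all genes), and Plk2 was at least 2-fold below (2.63% of all genes). The median difference of the 9 genes was 0.61, with medians of 0.30, 0.41, 0.86 and 0.69 in medulloblastomas 1 to 4, and that of all genes tested was -0.07. The brightest probe set of every gene was chosen on a mean over 4 tumours and 1 cerebellum, which favours probe sets high in the tumours. With all probe sets averaged, the differences of Mdm2, Mdm4, Sesn1, Sesn2 and Trp53inp1 were lower and those of Ccng1 and Plk2 higher. A fit of 4 arrays against 1 takes its spread from the tumours alone, and the smallest p that an exact permutation of 4 against 1 allows is 0.2.

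**Figure D1:**
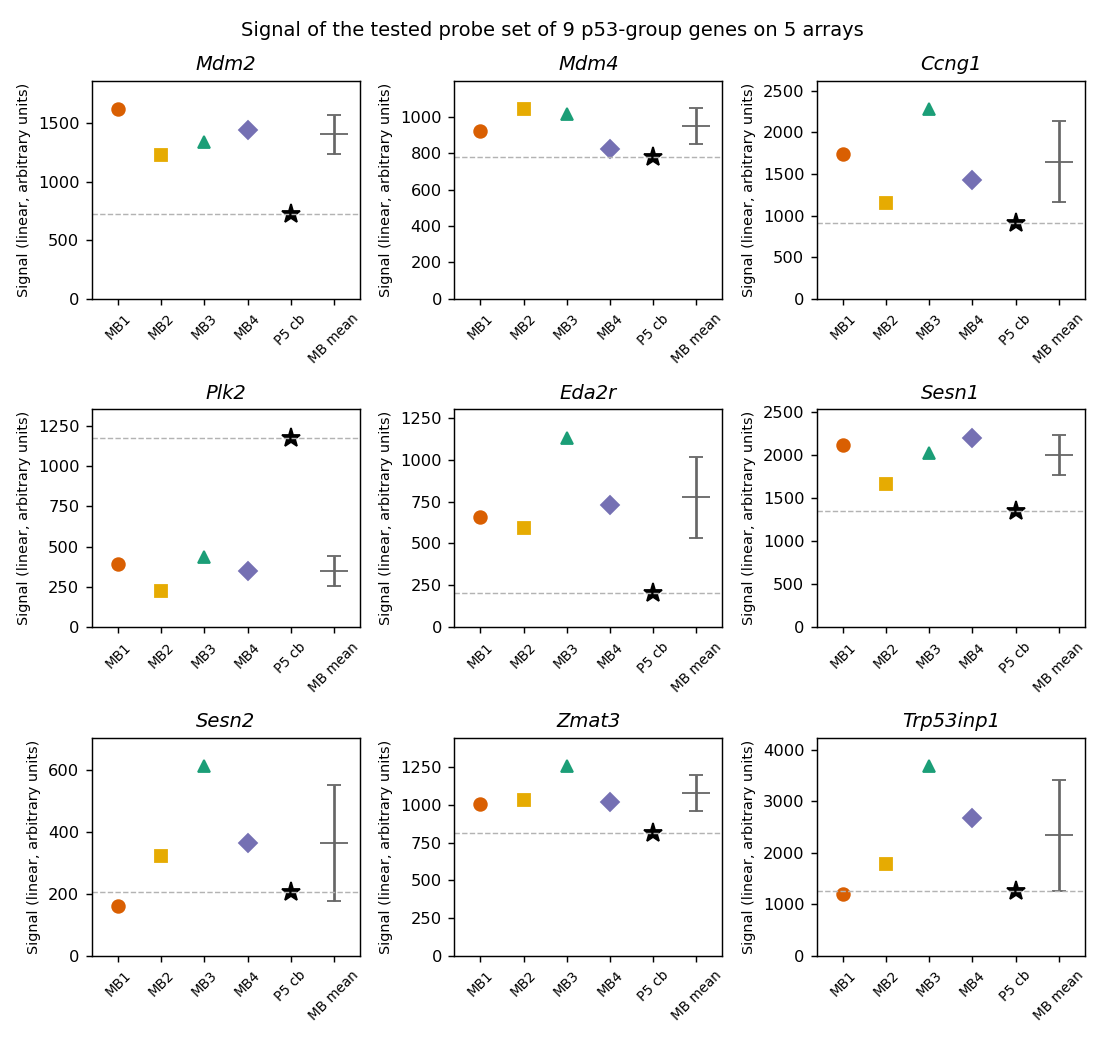
Linear signal of the tested probe set of each of 9 genes in medulloblastomas 1 to 4 (MB1 to MB4, coloured points), in the P5 cerebellum (star, dashed line), and as the tumour mean with its SD (n = 4). All 4 tumours lie above the cerebellum for Mdm2, Mdm4, Ccng1, Eda2r, Sesn1 and Zmat3, and all 4 lie below it for Plk2.

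Of the regulators, Mdm2 was higher in every tumour at its brightest probe set. This gene encodes the ubiquitin ligase that marks p53 for destruction and is itself a p53 target. Its brightest probe set (1423605_a_at) had signals of 1619, 1229, 1340 and 1441 in medulloblastomas 1 to 4, where the cerebellum had 725, so the tumours did not overlap the cerebellum and lay close together. The difference was 0.92 ± 0.26 (95% interval 0.33 to 1.51; limma, adjusted p = 0.174), or 1.89-fold. A second probe set (1427718_a_at) read 526, 1150, 1048 and 938 against 609. Medulloblastoma 1, the highest tumour at the first probe set, was here the lowest and lay below the cerebellum. The dimmest (1457929_at) read 93.9, 109, 135 and 139 against 199 and was lower in all 4 tumours, with a difference of -0.62. The probe sets of Mdm2 therefore disagreed in direction, and with all 3 averaged the difference was 0.27 (adjusted p = 0.672).

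Mdm4, whose product binds p53 and blocks its activity, differed little. Its brightest probe set (1460542_s_at) read 923, 1041, 1014 and 821 against 778, a difference of 0.27 ± 0.26 (95% interval -0.33 to 0.88; limma, adjusted p = 0.639). Medulloblastoma 4 was close to the cerebellum there, and the others were slightly above it. Probe sets whose names end in s_at can bind transcripts of more than 1 gene. Another probe set (1453982_at) read 286, 117, 185 and 161 against 209, above the cerebellum in medulloblastoma 1 alone. The next (1419558_at) read 86.4, 181, 262 and 164 against 163, with a mean difference of -0.00. The dimmest (1458223_at), at 50.9, 88.0, 77.2 and 56.5 against 213, was below the cerebellum in all 4 tumours and did not pass the filter on low signals. The sign of the Mdm4 difference depended on the probe set: it was -0.31 with all 4 averaged and -0.19 with s_at probe sets left out.

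The cell-cycle targets of the set had differences of opposite sign at their brightest probe sets, and neither passed the test. Ccng1 encodes cyclin G1, a p53 target that recruits a phosphatase to Mdm2, and Plk2 encodes a polo-like kinase involved in centriole duplication and in synapses. The brightest Ccng1 probe set (1420827_a_at) read 1745, 1153, 2275 and 1422 against 912, a difference of 0.79 ± 0.36 (95% interval -0.04 to 1.62; limma, adjusted p = 0.350). The other Ccng1 probe sets read 645, 779, 1625 and 836 against 481 (1450016_at) and 638, 608, 1473 and 658 against 424 (1450017_at). All 3 probe sets were higher in every tumour and highest in medulloblastoma 3, and their differences were 0.79, 0.88 and 0.84. They were designed from the same source sequence in the annotation and are not independent readings.

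Signals of Plk2 (1427005_at) were 395, 222, 433 and 349 against 1176. The tumours did not overlap the cerebellum, and medulloblastoma 2 was the lowest. The difference was -1.70 ± 0.39 (95% interval -2.60 to -0.80; limma, adjusted p = 0.121), a level 0.308 times that of the cerebellum. A second probe set (1443780_at) had low signals that ran the other way, 110, 136, 44.5 and 55.5 against 22.1, with a mean under the filter and a cerebellum signal under the constant of 32. With both averaged the difference was -0.32. The genes most like Plk2, by the root mean square distance between the differences in the 4 tumours among all genes tested, were Notch3 (distance 0.06), Igfbp4 (0.13) and Sema6a (0.19). Notch3 read 563, 328, 608 and 487 against 1715.

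Eda2r, which encodes a receptor for the ectodysplasin isoform A2, had 1 probe set (1440085_at). It read 658, 591, 1130 and 729 against 203. All 4 tumours lay above the cerebellum, medulloblastoma 3 highest. The difference was 1.74 ± 0.38 (95% interval 0.87 to 2.62; limma, adjusted p = 0.109), or 3.35-fold. Without medulloblastoma 1, the limma adjusted p was 0.0290 for Eda2r and 0.0341 for Plk2, with differences of 1.80 and -1.76. That fit called 3.18% of all genes higher and 2.71% lower. Medulloblastoma 1 had the highest 3' to 5' ratios and, among the tumours, the highest summed Purkinje cell, mature granule neuron and oligodendrocyte markers. The part of these in the calls was not tested. Without medulloblastoma 2, 3 or 4 the adjusted p was 0.224, 0.155 and 0.233 for Eda2r and 0.234, 0.167 and 0.243 for Plk2. The genes most like Eda2r were Ptp4a2 (distance 0.14), Gm29677 (0.17) and Zfp248 (0.17), and Ptp4a2 read 4685, 4286, 7479 and 4663 against 1389. Gm29677 read 106, 99.1, 158 and 137 against 13.3. Its cerebellum signal was under the constant added, so its differences and its distance depend on that constant. The cerebellum signal of Zfp248 (70.9) was under the mean needed for testing. Gm29677 and Zfp248 were therefore tested only through the tumours.

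The sestrins Sesn1 and Sesn2 encode stress proteins that restrain the growth kinase mTORC1 and limit oxidative damage. Sesn1 read 2125, 1672, 2026 and 2203 against 1350 at its brightest probe set (1433711_s_at), a difference of 0.55 ± 0.25 (95% interval -0.02 to 1.12; limma, adjusted p = 0.341), with all tumours above the cerebellum. A probe set designed from the same source sequence in the annotation (1454699_at) read 785, 599, 793 and 937 against 609, where medulloblastoma 2 was just short of the cerebellum. Another (1438931_s_at) read 620, 540, 1041 and 1305 against 756 and split the tumours, medulloblastomas 1 and 2 below the cerebellum and 3 and 4 above it. The dimmest (1444376_at) read 277, 198, 241 and 153 against 318, below it in all 4. The mean of all 4 probe sets was 0.12 above the cerebellum.

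Sesn2 read 162, 322, 611 and 362 against 206 (1451599_at), a difference of 0.61 ± 0.59 (95% interval -0.74 to 1.97; limma, adjusted p = 0.639). Medulloblastoma 1 was below the cerebellum and medulloblastoma 3 the highest. Its other probe set (1425139_at) read 246, 77.1, 383 and 245 against 298, above the cerebellum in medulloblastoma 3 alone. Averaged, the 2 probe sets of Sesn2 gave a difference of 0.09.

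Trp53inp1, which encodes a stress protein that promotes p53 activity and autophagy, varied widely between tumours. Its brighter probe set (1416926_at) read 1194, 1785, 3676 and 2679 against 1256, and the other (1416927_at) read 326, 748, 900 and 767 against 417. At both, medulloblastoma 1 was below the cerebellum, the other tumours were above it and medulloblastoma 3 was highest. The difference at the brighter one was 0.76 ± 0.52 (95% interval -0.44 to 1.96; limma, adjusted p = 0.511), and the tumours spanned 1.60 on the log2 scale.

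Zmat3 encodes a zinc finger protein that binds RNA and is a p53 target. Its only probe set (1449353_at) read 1010, 1035, 1257 and 1018 against 815, a difference of 0.39 ± 0.26 (95% interval -0.21 to 0.98; limma, adjusted p = 0.497). The tumours lay within 0.31 of each other on the log2 scale, all above the cerebellum.

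**Figure D2:**
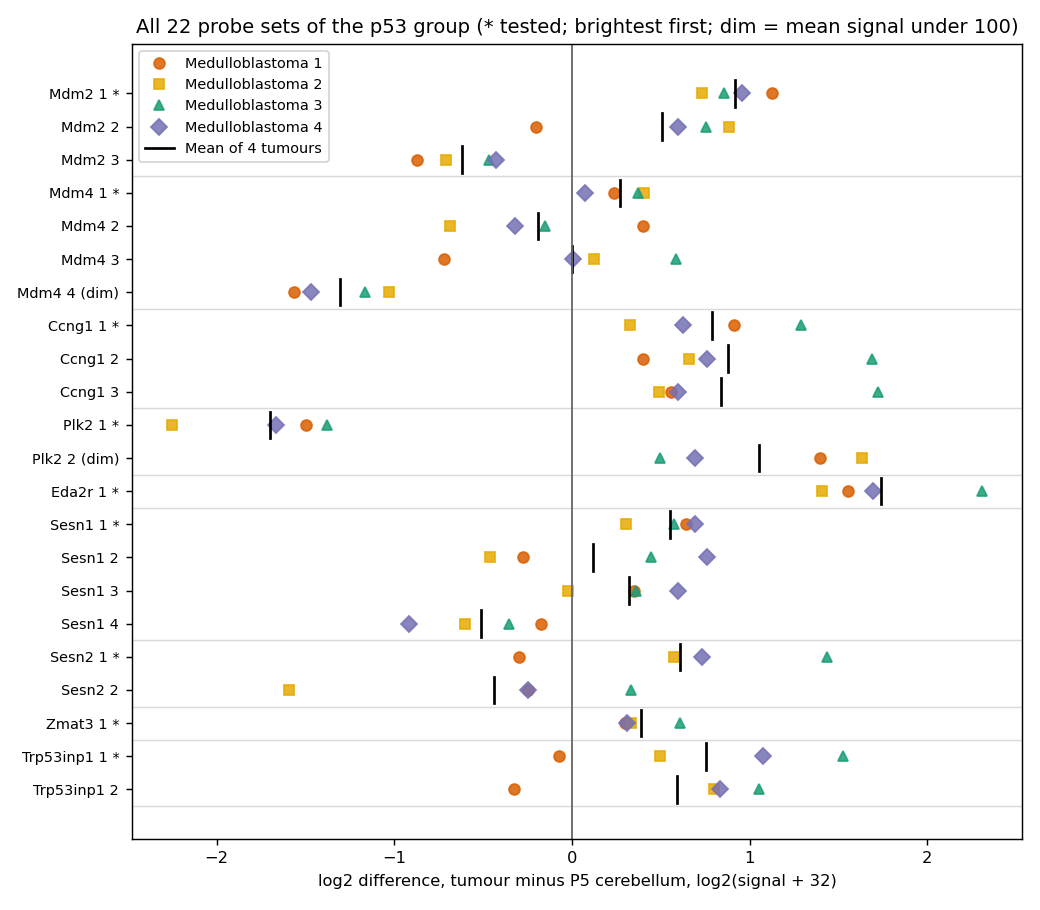
Difference of each tumour from the P5 cerebellum on the log2(signal + 32) scale (points) for all 22 probe sets of the 9 genes, brightest first within a gene, with the mean of the 4 tumours (black bar). All probe sets of Ccng1 and of Trp53inp1, designed from the same source sequence within each gene, have means above 0. Those of Mdm2, Mdm4, Sesn1, Sesn2 and Plk2 fall on both sides.

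Counted over all 22 probe sets, 9 lay above the cerebellum in all 4 tumours, 4 below it in all 4, and 9 had tumours on both sides. With each probe set tested as a unit of its own, 0 of the 20 that passed the filter were called by limma at an adjusted p under 0.05, and 3 had an unadjusted p under 0.05. These 3 were the probe sets of Eda2r, Plk2 and Mdm2 given above with the largest differences. Of the 7 genes with several probe sets, only Ccng1 and Trp53inp1 had a mean difference of the same sign at all of them. Within each of these genes, all probe sets were designed from the same source sequence in the annotation, so they are not independent readings. Both Sesn2 probe sets also shared a source sequence and differed in sign.

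The tumours differed from each other in a pattern that several of these genes shared. Medulloblastoma 3 had the highest signal of the 4 tumours for 6 of 9 genes, Ccng1, Plk2, Eda2r, Sesn2, Zmat3 and Trp53inp1, where 23.8% of all genes tested had their highest tumour signal there. Over the probe sets the number was 11 of 22. Plk2 was nevertheless below the cerebellum in medulloblastoma 3, as in the other tumours. These counts were not among those planned, and this tumour was singled out with the values known. Of the other p53 targets for growth arrest and feedback, 5 of 9 were highest in medulloblastoma 3, as were 5 of 9 apoptotic targets, 7 of 22 binding partners, 3 of 9 metabolic targets, 1 of 7 upstream kinases, 0 of 5 repair genes and 0 of 2 p53 relatives, or 21 of all 63. Among the arrest targets was Cdkn1a, the cell-cycle inhibitor p21, which was named here after its values were seen. It read 1746, 934, 2623 and 1238 against 1295, and its second probe set read 300, 569, 743 and 207 against 51.4. Medulloblastoma 3 is the array with no stated processing tool, the lowest 3' to 5' ratios and the lowest Purkinje cell markers. Among the tumours it also had the highest summed microglia (26344), astrocyte (18680) and endothelial (2264) markers, with 4 of 5 endothelial, 3 of 5 astrocyte and 3 of 5 fibroblast genes highest there. The part of all these in the pattern was not tested. Without it the difference was 1.55 for Eda2r, 0.62 for Ccng1, 0.50 for Trp53inp1 and 0.34 for Sesn2.

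The array titles carry a prefix, ken on medulloblastomas 1 and 2, hmk on medulloblastomas 3 and 4 and on the cerebellum, whose meaning the labels do not give. The Trp53inp1 difference was 1.30 within the hmk arrays and 0.21 for the ken tumours against the same cerebellum, and that of Sesn2 was 1.08 and 0.14. Those of Eda2r (2.0 and 1.48), Mdm2 (0.91 and 0.93) and Plk2 (-1.52 and -1.87) were closer. Both sets share the 1 cerebellum, and the difference between the prefixes was not tested. Within the hmk arrays, limma called Eda2r (adjusted p = 0.00510), Trp53inp1 (0.00569) and Mdm2 (0.0377) higher and Plk2 lower (0.0128), where 5.93% of all genes were called higher and 5.96% lower. The spread there came from only 2 tumours.

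**Figure D3:**
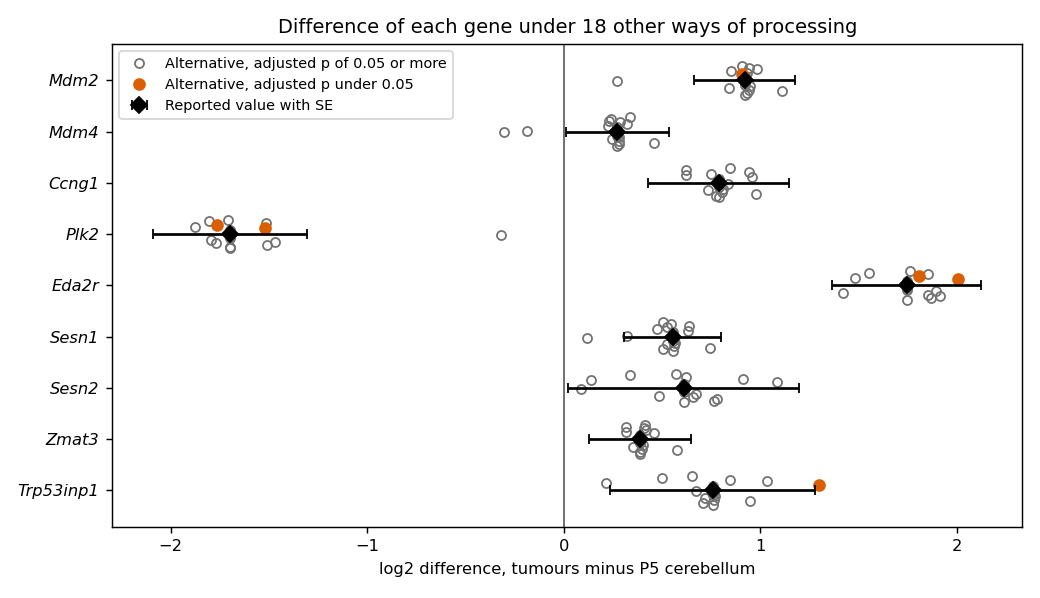
Difference of each of the 9 genes from the P5 cerebellum (log2 scale) as reported, with its SE (black), and under each of 18 alternatives (open points, filled where the adjusted p was under 0.05). Eda2r lies between 1.42 and 2.0 and Plk2 between -1.87 and -0.32, the latter nearest to 0 when all probe sets are averaged, and Mdm4 has values on both sides of 0.

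Among 71 other genes of the p53 pathway, 66 had a probe set and 63 were tested. None was called in limma at an adjusted p under 0.05, and at an unadjusted p under 0.05 there were 7 of 63 higher and 2 lower (7.72% and 7.44% of all genes), and Pmaip1, with a cerebellum signal under the constant of 32, was one of the 7. Their median difference was 0.13 against -0.07 for all genes. Above the cerebellum in all 4 tumours lay 22 of 63, and 9 of 63 lay below it (25.1% and 30.8% of all genes, the shares against which the counts of each list below stand). Pmaip1 was also one of the 22. Dram1, Fas and Tnfrsf10b had mean signals under 100 and were not tested. Without medulloblastoma 1, limma called Siva1 (adjusted p = 0.00380), Trim24 (0.0114) and Npm1 (0.0134) higher and Ppp1r13b (0.0290) lower, again with 3.18% and 2.71% of all genes called. Without medulloblastoma 2, 3 or 4, 0 of the 63 were called either way.

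Of 7 kinases that signal to p53, 3 lay above the cerebellum in every tumour and 1 below it, with a median of 0.20. Vrk1 read 548, 898, 774 and 931 against 435 (0.78 ± 0.34) and Atm, the kinase activated by DNA breaks, 1004, 1060, 1072 and 1234 against 680 (0.66 ± 0.25). Both probe sets of Atm were higher on average, and the other Vrk1 probe set had a difference of 0.14. Prkdc, the catalytic subunit of the DNA-dependent kinase, read 307, 494, 354 and 330 against 541.

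The 22 binding partners and modifiers of p53 or Mdm2 had a median of 0.13, with 9 above the cerebellum in all 4 tumours and 3 below it. Trim24, a ubiquitin ligase for p53, read 907, 1544, 1555 and 1674 against 572 (1.23 ± 0.36), but 1 of its other probe sets ran the other way on average (-0.30). Npm1, encoding nucleophosmin, which can bind Mdm2, read 8497, 11404, 11239 and 12561 against 5854 (0.88 ± 0.25), with a difference of 0.99 at its other probe set. Ppp1r13b, which encodes ASPP1, a partner that steers p53 to apoptotic genes, read 1086, 580, 550 and 684 against 1509 (-1.08 ± 0.38). Cdkn2a, whose Arf product frees p53 from Mdm2, had low signals of 114, 76.0, 331 and 369 against 137, and it was named after its values were seen. The p53 relatives Trp63 and Trp73 were dim. Their brightest probe sets lay below the cerebellum in all 4 tumours, at 51.9 to 132 against 172 and 101 to 174 against 289. Of the dimmer Trp63 probe sets, with mean signals under 100, 2 had differences above 0 (0.14 and 0.52) and 1 below it (-0.28), and the other Trp73 probe set differed by -1.13.

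Of 9 growth arrest and feedback targets, 1 lay above and 1 below the cerebellum in all 4 tumours, and the median was 0.32. The first was the antiproliferative gene Btg2, at 663, 952, 1336 and 1540 against 645, whose other probe set had a difference of -0.30. The second was Gtse1, at 406, 517, 595 and 326 against 711. Sfn, encoding 14-3-3 sigma, read 40.6, 333, 263 and 162 against 109. The median of 5 repair targets was -0.21, with Polk, a translesion polymerase, at 526, 473, 272 and 339 against 262 the furthest from the cerebellum (0.52 ± 0.41). Ercc5 (-0.29) and Xpc (-0.24) followed, and the other Polk probe set had a difference of 0.13. The median of 9 metabolic, redox and autophagy targets was -0.13, where Ephx1, an epoxide hydrolase gene, read 624, 406, 1015 and 610 against 393 (0.64 ± 0.44). Sco2 (-0.42) and Prkab1 (0.37) were next, and the other Prkab1 probe set ran the other way (-0.23).

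Of the 9 apoptotic targets tested, 5 lay above the cerebellum in all 4 tumours and 0 below it, with a median of 0.42 (25.1% and 30.8% of all genes). Siva1 was at least 2-fold above in each tumour (2.01% of all genes). Pmaip1 was so too on this scale, and it is among the 5 and in the median. It was tested only because its tumour signals are high, so it gives these counts and the median no support. Pmaip1, which encodes the BH3-only protein Noxa, read 291, 141, 171 and 169 against 20.6. The cerebellum signal was under the constant added, and the gene passed the filter only through the tumours, so no size of difference is given. Siva1, encoding a proapoptotic adaptor, read 2863, 4030, 4058 and 3843 against 1279 (1.49 ± 0.26; limma, adjusted p = 0.0627). At 1 of its 4 probe sets, the dimmest, the Siva1 difference was -0.31. With arrays scaled to equal medians Siva1 was called (limma, adjusted p = 0.0417), as were 0.553% of all genes in the same direction. Pidd1, encoding a death domain protein, read 864, 765, 754 and 736 against 437 (0.79 ± 0.26).

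**Figure D4:**
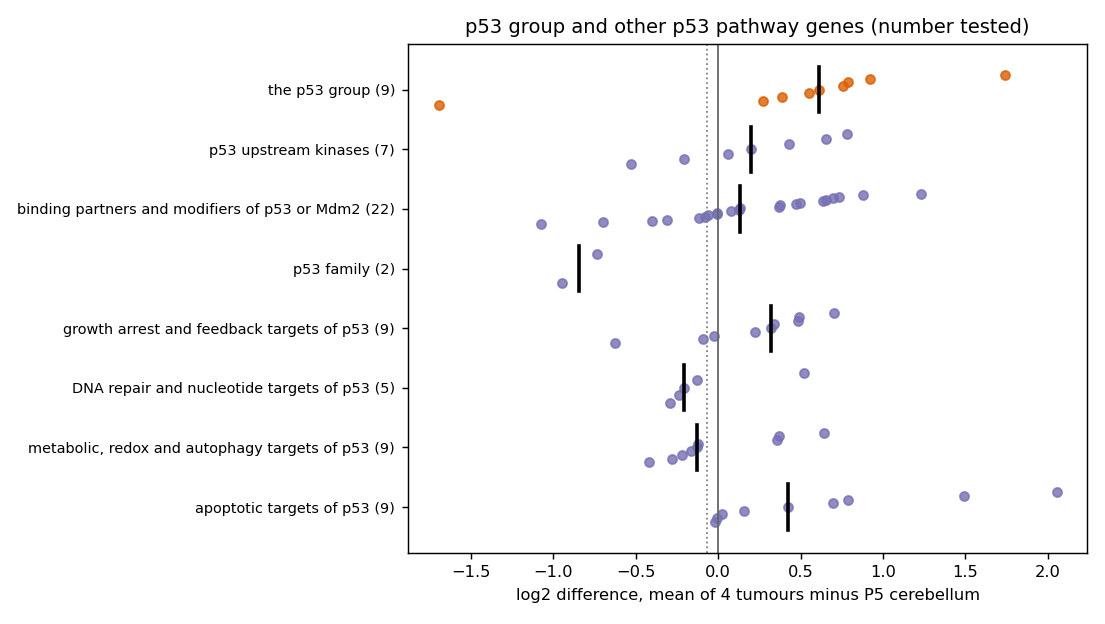
Difference of each gene tested (points; mean of 4 tumours minus P5 cerebellum, log2 scale) and median (black bar) for the 9 genes and for 7 lists of other p53 pathway genes; the dotted line is the median of all genes tested, -0.07. At the brightest probe set of each gene, the medians run from -0.84 for the p53 relatives to 0.61 for the 9 genes. The rightmost point, Pmaip1, rests on a cerebellum signal under the constant of 32.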

How the data were processed

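Signals were measured on 5 arrays. The authors deposited linear intensities, 1 for each probe set and array, made with MAS5 for 4 arrays per the submitters' processing notes; for medulloblastoma 3 no tool is named there. Every array had a 2% trimmed mean of 500.002, so scaling to 500 left the values as they were. Detection calls were not used, and the number of arrays limits the precision. Arrays were grouped by the labels' tissue and numbered in record order, a name only.

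Of 45101 probe sets, 64 were controls, 34945 had 1 gene symbol in the platform annotation, 932 had several and were not used, and 9160 were unnamed here. For each of 18193 genes the brightest probe set on average was taken, and the 14109 genes whose mean signal was at least 100 were tested on log2(signal + 32) with limma 3.58.1 in R 4.3.3 (lmFit, eBayes with a variance trend; two-sided p, Benjamini-Hochberg over all genes, threshold 0.05). The log2 scale with this constant understates changes of low signals. The fit had 3 residual and 5.02 prior degrees of freedom. It was also run on simulated data in which the cerebellum was given the spread of the tumours. That run cannot show how the unknown spread of the single cerebellum affects the fit. The genes and lists were chosen with earlier results of these data known. Named were all 9 genes measured, up to 3 genes of each pathway list with the largest absolute differences, and, for genes at least 1 from the cerebellum on the log2 scale, the 3 genes nearest in pattern; Cdkn1a and Cdkn2a were added after their values were seen. Alternatives were other scalings, constants, filters, probe set choices and variance models, arrays of 1 title prefix, and each tumour left out.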

Additional observations from a re-analysis of the deposited data

Results flagged for a closer look

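Within the 4 tumours, 2 of the 22 probe sets had a tumour far from the other 3, by Dixon's criterion on log2 values. Medulloblastoma 3 stood above the others for Zmat3, at 1257 where the others read 1010 to 1035, and for 1 Ccng1 probe set (1450017_at), at 1473 where the others read 608 to 658. By chance about 1 in 20 such groups is marked. The other 2 Ccng1 probe sets, also highest in medulloblastoma 3, did not meet the criterion.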

How the results depend on the processing

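Over 18 alternatives, the differences of the 9 genes gave 162 values, of which 154 kept direction and side of the threshold, 6 passed it and 2 changed sign. None of the 9 genes was called in the reported fit, so the 154 are values that stayed uncalled. Many of them could not change direction. No scaling repeated the reported values, and other filters, the other variance model and single testing of probe sets left the differences unchanged. The sign changes were those of Mdm4, at -0.31 with all probe sets averaged and -0.19 with x_at and s_at probe sets left out, where fewer probe sets were used. No paired analysis was possible because there is 1 cerebellum and the array numbers are names. Of the 9 genes, leaving out each tumour in turn gave between 0 and 1 called higher and between 0 and 1 called lower (Eda2r and Plk2, without medulloblastoma 1), and of the other pathway genes between 0 and 3 higher and between 0 and 1 lower. Over all genes, 44 higher and 25 lower with all arrays, limma called 448 and 383 without medulloblastoma 1, 2 and 0 without 2, 10 and 6 without 3, and 0 and 0 without 4, where 1702 had an unadjusted p under 0.05. The hmk arrays alone gave 3 and 1 of the 9 genes, 2 of them at least 2-fold above in each tumour, 5 and 1 of the pathway genes, and 837 and 841 of all genes; the ken tumours gave 21 and 16 of all genes. Equal medians, which shifted the median over all genes from -0.07 to 0.12, gave 78 higher overall and 1 pathway gene, Siva1. A larger constant gave 45 lower. No filter gave 14 and 12, probe sets averaged gave 19 and 9, and eBayes without a trend gave 0 and 0, with 2007 genes at an unadjusted p under 0.05. With probe sets averaged, 0 of the 9 genes were at least 2-fold below the cerebellum in each tumour, 2 lay below it and 4 above it, and with each probe set tested as a unit 3 probe sets lay below it in each tumour. The cause of the other changes was not tested.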
